A study of Mus musculus with 2 samples.

Results

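The 9 genes described here encode enzymes that make NAD or spend it: Nampt, Nmnat1, Nmnat2, Nmnat3, Naprt, Nadsyn1, Nadk, Sirt1 and Parp1. They were taken by symbol from the 32285 genes of the matrices, and all 9 were found. The levels came from 2 single-cell RNA libraries, 1 per group, made from cells sorted as CD4-positive and CD8-positive from mouse lung tumours 8 weeks after intranasal adenoviral Cre (Ad-Cre). Both groups were chimeric mice, labelled with an arrow that by convention runs from donor to host. The hosts of both carried KrasLSL-G12D/+ and Lkb1fl/fl, alleles that Cre switches to an active oncogene and a lost tumour suppressor, and the donors of both carried Tmem173fl/fl, the floxed gene of STING. WTKL is the group with these alleles alone, and in LYZKL the donors also carried Lyz2-Cre, a recombinase driven in the myeloid lineage, which includes macrophages and neutrophils. Tamoxifen appears beside Ad-Cre in the treatment given for WTKL only. How many mice each library holds is not given in the sources used here. With 1 library per group there is no test between groups and no p-value, and every interval is a 95% interval that covers counting error only.

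NAD carries electrons in metabolism and is also consumed as a substrate, so cells remake it continually. Most immune cells recycle nicotinamide: Nampt, the rate-limiting enzyme, makes nicotinamide mononucleotide, and the 3 Nmnat enzymes, which work in the nucleus, the cytosol and the mitochondria, turn it into NAD. Naprt and Nadsyn1 begin and end the route from nicotinic acid. Nadk adds a phosphate to make NADP, whose reduced form, NADPH, is used by the NADPH oxidase of phagocytes. Sirt1, a deacetylase, and Parp1, which builds ADP-ribose chains at broken DNA, both spend NAD.

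The matrices held 12204 barcodes in WTKL and 13607 in LYZKL, more than the 6609 and 7202 cells that the labels state, and 12003 and 13451 remained after barcodes with under 500 genes or over 10% mitochondrial UMIs were dropped. A UMI marks 1 captured RNA molecule. Of the barcode sequences, 100 occurred in both libraries. Although the label names T cells only, marker UMIs also gave B cells, macrophages or monocytes, and neutrophils. T cells numbered 7872 and 8237, split into Foxp3 T cells (354 and 445), CD4 T cells without Foxp3 (3732 and 3408), T cells with no Cd4, Cd8 or Foxp3 UMI, written CD4-CD8- (1038 and 858), and CD8 T cells (1681 and 2358), with 1067 and 1168 T cells outside these classes. There were 516 and 364 B cells, 340 and 483 macrophages or monocytes, and 1148 and 1487 neutrophils. The classes held between 1341545 and 24536053 UMIs in a library, and levels are given as CPM, the gene's UMIs per 1000000 UMIs of the class. Barcodes with markers of 2 lineages (1232 and 1427) were left out. They include 58.9% and 53.8% of all barcodes with macrophage markers, so the macrophage class covers only those without T cell markers. A missing Cd4 UMI does not show that a cell lacks Cd4.

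Tmem173 was at 18.9 CPM in WTKL neutrophils (81 UMIs) and 4.44 CPM in LYZKL neutrophils (28 UMIs). In macrophages or monocytes it was at 43.5 and 34.6 CPM, and in B cells at 22.3 and 35.8 CPM. Among T cells it was at 32.8 and 83.7 CPM in Foxp3, 22.9 and 46.3 CPM in CD4, 22.7 and 46.9 CPM in CD4-CD8- and 38.3 and 33.9 CPM in CD8 T cells. Which exons the floxed allele removes is not given in the sources used here, so a 3′ tag outside them would not check the deletion.

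**Figure D1:**
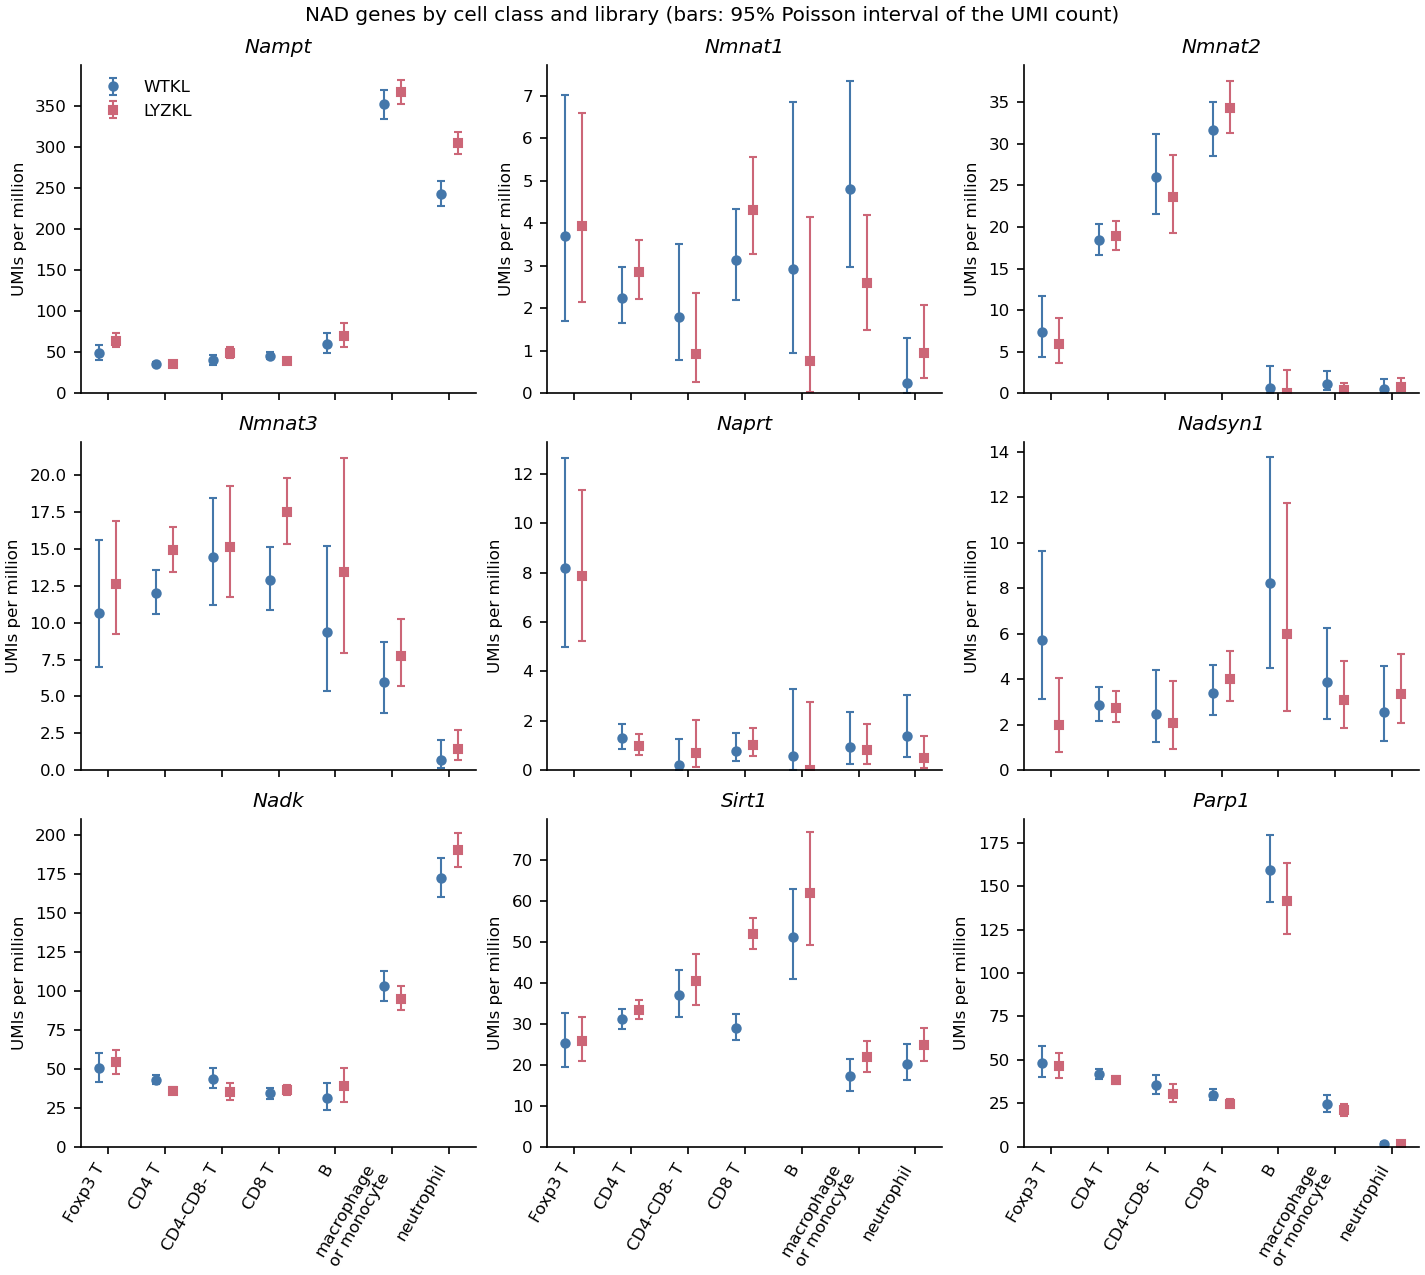
Level of each of the 9 genes (vertical axis, CPM, each panel from 0) in the 7 cell classes (horizontal axis). Circles are WTKL, squares LYZKL, 1 library each, and bars are 95% Poisson intervals of the UMI count. Nampt and Nadk are high in macrophages or monocytes and neutrophils, Nmnat2 in T cells, Naprt in Foxp3 T cells and Parp1 in B cells, and the Sirt1 points of CD8 T cells lie apart.

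For 3 members the start of the gene is shown, because their levels separate cell types (Nampt, Parp1) or the libraries (Sirt1). These are RefSeq promoter windows on GRCm38.p6, the build of mm10, from 250 bases before to 50 bases after the start, 5′ to 3′ on the gene's strand. Windows were found for 8 of the 9 members. Those of Nampt and Sirt1 lie inside the gene positions given below, which are from GENCODE and begin further upstream. Capitals mark GC boxes, GGGCGG on either strand (CCGCCC in the text), and E-boxes, CACGTG. The windows are Nampt at chr12:32820085-32820384 on the plus strand, Sirt1 at chr10:63338986-63339285 on the minus strand and Parp1 at chr1:180568641-180568940 on the plus strand.
Nampt: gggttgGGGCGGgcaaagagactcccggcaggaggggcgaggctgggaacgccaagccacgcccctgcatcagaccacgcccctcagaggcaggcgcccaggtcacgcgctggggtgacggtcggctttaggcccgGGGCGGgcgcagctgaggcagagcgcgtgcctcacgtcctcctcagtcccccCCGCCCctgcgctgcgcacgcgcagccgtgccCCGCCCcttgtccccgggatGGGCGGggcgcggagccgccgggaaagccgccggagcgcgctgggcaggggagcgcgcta
Sirt1: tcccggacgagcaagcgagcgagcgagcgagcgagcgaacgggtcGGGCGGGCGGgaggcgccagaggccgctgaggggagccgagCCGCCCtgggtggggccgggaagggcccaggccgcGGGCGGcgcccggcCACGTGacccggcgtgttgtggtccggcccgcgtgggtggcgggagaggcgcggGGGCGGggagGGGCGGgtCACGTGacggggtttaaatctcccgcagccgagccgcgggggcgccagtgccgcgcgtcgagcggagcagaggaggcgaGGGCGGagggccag
Parp1: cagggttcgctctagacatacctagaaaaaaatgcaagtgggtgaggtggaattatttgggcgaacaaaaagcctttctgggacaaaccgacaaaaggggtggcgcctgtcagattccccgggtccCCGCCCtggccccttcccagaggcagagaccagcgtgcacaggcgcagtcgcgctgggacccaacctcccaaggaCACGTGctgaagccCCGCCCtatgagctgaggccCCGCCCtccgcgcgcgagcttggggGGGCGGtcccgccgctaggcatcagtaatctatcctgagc
All of them are rich in G and C, at 76.3% for Nampt, 79.0% for Sirt1 and 62.0% for Parp1, where the median of 32851 such windows was 52.7%. The Nampt window holds 5 GC boxes and no E-box. The Sirt1 window holds 7 GC boxes, counting overlapping matches, and 2 E-boxes. Parp1 has 4 GC boxes and 1 E-box. At least 1 GC box occurs in 35.7% of all windows and an E-box in 7.15%. These are matches of letters, and no binding was measured.

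Nampt, which opens the salvage of nicotinamide, was counted with 10409 UMIs over all classes. Its gene lies on chromosome 12 (GRCm38, 32819545 to 32853349, plus strand). Macrophages or monocytes held 352 CPM in WTKL (334 to 370) and 367 CPM in LYZKL (352 to 382), and neutrophils 243 CPM (228 to 258) and 304 CPM (291 to 318). Against all T cells the macrophage level was 8.69-fold higher in WTKL and 9.004-fold higher in LYZKL, and the neutrophil level 5.998-fold and 7.48-fold. Of all genes tested, 17.6% and 17.4% were at least 1.5-fold higher in macrophages or monocytes than in T cells, and 17.7% and 18.3% in neutrophils. Both myeloid classes thus stood far above the lymphocytes in each library.

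Among lymphocytes B cells had 60.4 CPM of Nampt in WTKL and 70.1 CPM in LYZKL. Foxp3 T cells followed with 49.2 and 64.0 CPM, CD8 T cells had 45.5 and 39.6 CPM, and CD4-CD8- T cells 40.5 and 49.4 CPM. CD4 T cells were lowest, at 35.6 and 36.0 CPM. Intervals overlap between B cells and Foxp3 T cells in both libraries. In WTKL they also overlap between B cells and CD8 T cells, among Foxp3, CD8 and CD4-CD8- T cells, and between CD4-CD8- and CD4 T cells. In LYZKL they also overlap between Foxp3 and CD4-CD8-, between CD4-CD8- and CD8, and between CD8 and CD4 T cells. The intervals therefore do not separate these pairs of classes. Those of B cells and Foxp3 T cells lie above that of CD4 T cells in both libraries. RNA of myeloid cells in the droplets was gauged by their markers: the summed neutrophil markers of T cell classes were at 0.240% to 0.374% of their neutrophil level, while Nampt was at 11.8% to 21.0% of its own. The macrophage markers of T cell classes stood at 2.89% to 8.72% of their macrophage level, against 9.82% to 17.5% for Nampt. The T cell gate itself leaves out barcodes with at least 12 neutrophil or 8 macrophage marker UMIs. The marker percentages are therefore capped by the gate and can understate the myeloid RNA, whose part in the Nampt level was not tested.

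Between the libraries Nampt differed most in Foxp3 T cells and neutrophils, both higher in LYZKL. In Foxp3 T cells, named for the regulatory T cell factor, 120 UMIs in WTKL and 228 in LYZKL gave a log2 ratio of LYZKL to WTKL of 0.38 (0.06 to 0.71), or 1.30-fold. In neutrophils 1042 and 1919 UMIs gave a log2 ratio of 0.33 (0.22 to 0.44), or 1.25-fold. CD8 T cells went the other way, with a log2 ratio of -0.20 (-0.38 to -0.02). The ratios of CD4 T cells (0.01), B cells (0.21), macrophages or monocytes (0.06) and CD4-CD8- T cells (0.29, -0.01 to 0.58) all had intervals that include 0. Foxp3 T cells without naive-type markers held 49.6 and 69.9 CPM, and the naive-type ones, gated on markers that include Ccr7 and Lef1, held 48.5 and 57.5 CPM. The macrophage marker sum of Foxp3 T cells was also higher in LYZKL, 210 against 251 CPM, with 11 and 10 of the 12 markers seen. Its part in the Nampt difference was not tested.

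Neutrophils and macrophages were then split by state genes. Neutrophils with both granule genes (Ngp, Camp, Ltf, Retnlg) and Ccl3 or Hcar2 UMIs had the highest Nampt, 365 CPM in WTKL and 461 CPM in LYZKL. Those with Ccl3 or Hcar2 alone held 258 and 323 CPM. Neutrophils with granule genes alone held 199 and 177 CPM, and those with neither held 121 and 178 CPM. The LYZKL value was higher in 3 of these 4 groups, with log2 ratios of 0.34 (0.15 to 0.53) for both, 0.32 (0.15 to 0.50) for Ccl3 or Hcar2 alone and 0.55 (0.14 to 0.97) for neither. The granule-gene group did not share that direction, and its interval includes 0 (206 and 294 UMIs, log2 ratio -0.17, -0.44 to 0.09).

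Among macrophages or monocytes the Saa3 or Cfb group, gated on Saa3, Cfb and Nos2, held 425 CPM of Nampt in WTKL and 403 CPM in LYZKL. The Vcan or Ccl17 group held 108 CPM (48 UMIs in 40 cells) and 210 CPM (44 UMIs in 20 cells). That difference was 1.94-fold, a log2 ratio of 0.96 (0.33 to 1.58), where 6.55% of genes were at least 1.5-fold higher. The remaining macrophages held 277 and 202 CPM (log2 ratio -0.45, -0.72 to -0.19). The Vcan or Ccl17 group and the remaining macrophages therefore differed in direction. The interval of the Saa3 or Cfb group includes 0 (log2 ratio -0.07, -0.18 to 0.03). The shares of the 3 groups changed as well: the Saa3 or Cfb group was 55.3% of WTKL macrophages or monocytes and 74.5% of those of LYZKL.

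The 3 Nmnat genes differed in where they were found. Nmnat2, the cytosolic enzyme best known from nerve cells, was seen in T cells here. Its gene is on chromosome 1 (GRCm38, 152954993 to 153119261, plus strand). CD8 T cells held 31.7 CPM in WTKL and 34.3 CPM in LYZKL, CD4-CD8- T cells 26.1 and 23.7 CPM, CD4 T cells 18.4 and 18.9 CPM and Foxp3 T cells 7.38 and 5.90 CPM. Foxp3 T cells were thus below CD4 T cells in both libraries, with log2 ratios of -1.32 (-2.09 to -0.64) and -1.68 (-2.38 to -1.05). B cells had 1 and 0 UMIs, macrophages or monocytes 5 and 2, and neutrophils 2 and 5, where the limit that a count of 0 allows in B cells of LYZKL is 2.24 CPM. Cycling T cells held 6.26 and 9.48 CPM against 24.4 and 24.9 CPM in other T cells. Naive-type CD8 T cells differed between the libraries, with 37.3 CPM (147 UMIs) in WTKL against 60.2 CPM (124 UMIs) in LYZKL. This was 1.61-fold (log2 ratio 0.69, 0.33 to 1.04), where 5.49% of genes were at least 1.5-fold higher. The CD8 class as a whole did not differ beyond counting error (0.12, -0.08 to 0.32). An antisense gene, Gm28960, overlaps Nmnat2 and was at 4.52 and 6.12 CPM in CD8 T cells.

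Nmnat3, the mitochondrial enzyme (chromosome 9, 98287435 to 98420438, plus strand), was at 10.7 to 17.5 CPM in T cell classes and at 9.38 and 13.4 CPM in B cells. Nmnat3 was at 5.95 and 7.75 CPM in macrophages or monocytes and at 0.699 and 1.43 CPM in neutrophils (3 and 9 UMIs). It was higher in LYZKL in CD8 T cells, 12.9 and 17.5 CPM (log2 ratio 0.44, 0.14 to 0.75), and in CD4 T cells, 12.0 and 14.9 CPM (0.31, 0.08 to 0.55). In CD8 T cells gated on Xcl1, Itga1 and Itgae it was 1.61-fold higher (23 and 90 UMIs, log2 ratio 0.68, 0.01 to 1.41). There 7.63% of genes were at least 1.5-fold higher. Nmnat1, the nuclear enzyme (chromosome 4, 149467572 to 149485202, minus strand), was seen at 0.233 to 4.81 CPM, with at most 70 UMIs in a class, and no ratio of it had an interval that excludes 0 in a class with 50 UMIs.

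Naprt (chromosome 15, 75890956 to 75894481, minus strand) and Nadsyn1 (chromosome 7, 143795584 to 143822849, minus strand), of the nicotinic acid route, were sparse. The Naprt level was highest in Foxp3 T cells, with 20 UMIs in WTKL (8.20 CPM, 5.01 to 12.7) and 28 in LYZKL (7.86 CPM, 5.23 to 11.4). CD4 T cells had 27 and 24 UMIs (1.28 and 0.978 CPM). The level in Foxp3 T cells was 6.39-fold higher than in CD4 T cells in WTKL (log2 ratio 2.68, 1.76 to 3.56) and 8.04-fold in LYZKL (3.01, 2.17 to 3.86), where 13.4% and 12.3% of genes were at least 1.5-fold higher. No other class was above 1.40 CPM. Both naive-type Foxp3 T cells (10.8 and 7.12 CPM) and the rest (6.62 and 8.53 CPM) carried it. Eef1d, on the same strand, overlaps Naprt, so reads could be shared. Eef1d was at 192 and 199 CPM in Foxp3 T cells and 211 and 196 CPM in CD4 T cells, and its part in the Naprt level was not tested. Nadsyn1 was at 1.97 to 8.21 CPM, highest in B cells (14 and 8 UMIs). In Foxp3 T cells it had 14 UMIs in WTKL and 7 in LYZKL.

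Nadk, on chromosome 4 (GRCm38, 155562378 to 155591001, plus strand), was also highest in myeloid cells, but with neutrophils above macrophages or monocytes. Neutrophils held 172 CPM in WTKL (160 to 185) and 190 CPM in LYZKL (180 to 201), and macrophages or monocytes 103 CPM (93.7 to 113) and 95.1 CPM (87.6 to 103). The neutrophil level was 4.24-fold and 5.10-fold that of all T cells, and the macrophage level 2.53-fold and 2.55-fold. Within neutrophils Nadk was highest with granule genes, at 230 and 238 CPM, and lowest with Ccl3 or Hcar2 alone, at 121 and 146 CPM. Those with both held 203 and 217 CPM. Set against the granule-gene group, the Ccl3 or Hcar2 group had a log2 ratio of -0.93 (-1.22 to -0.65) in WTKL and -0.71 (-0.92 to -0.50) in LYZKL. Nampt ran the opposite way between the same groups, with log2 ratios of 0.37 (0.13 to 0.62) and 0.87 (0.68 to 1.07). T cell classes and B cells held 31.7 to 54.2 CPM of Nadk.

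**Figure D2:**
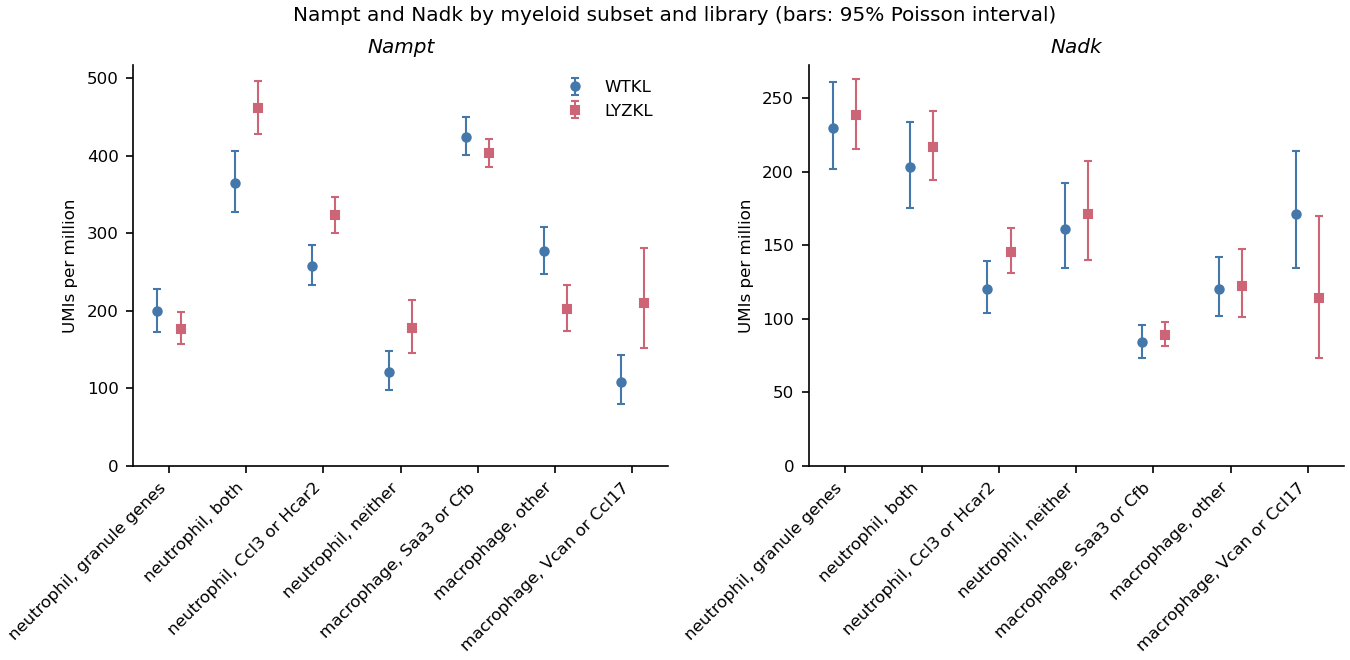
Level of Nampt (left) and Nadk (right) in CPM of the subset (vertical axes, from 0), for 4 neutrophil and 3 macrophage subsets (horizontal axes), circles WTKL, squares LYZKL, bars 95% Poisson intervals. Nampt is highest in neutrophils with both gene groups (365 and 461 CPM) and in the Saa3 or Cfb macrophages (425 and 403 CPM), whereas Nadk is highest in neutrophils with granule genes (230 and 238 CPM).

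Nadk was lower in LYZKL in CD4 T cells, with 43.1 CPM in WTKL against 36.1 CPM. The log2 ratio was -0.26 (-0.39 to -0.12). CD4-CD8- T cells showed 43.9 and 35.2 CPM (log2 ratio -0.32, -0.63 to -0.01). Neutrophils were on the other side, with a log2 ratio of 0.14 (0.01 to 0.28). Foxp3 T cells (50.4 and 54.2 CPM), CD8 T cells (34.4 and 36.4 CPM), B cells and macrophages or monocytes had intervals that include 0. In CD4 T cells the difference appeared in cells with IL-17 type markers (45.9 and 39.3 CPM) and in the remaining ones (43.9 and 34.3 CPM), while naive-type cells held 36.3 and 33.0 CPM, with an interval that includes 0.

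Sirt1 gave the largest difference between the libraries among the 40 ratios with enough UMIs. It lies on chromosome 10 (GRCm38, 63319005 to 63381704, minus strand). CD8 T cells held 29.0 CPM in WTKL (333 UMIs, 25.9 to 32.3) and 51.9 CPM in LYZKL (712 UMIs, 48.2 to 55.9), a 1.79-fold difference with a log2 ratio of 0.84 (0.65 to 1.03). Of the 63 pairs of a member and a class, 40 had at least 50 UMIs over both libraries, and this was the only 1 past 1.5-fold. In CD8 T cells 10.2% of 11060 genes were at least 1.5-fold higher in LYZKL and 3.95% lower, the largest upward share of the classes. The median over all genes there was a log2 ratio of 0.11. Relative to that median Sirt1 was higher by 0.73 on the log2 scale. Across the other classes the shares past 1.5-fold were 2.66% to 7.5% higher and 3.55% to 5.58% lower.

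**Figure D3:**
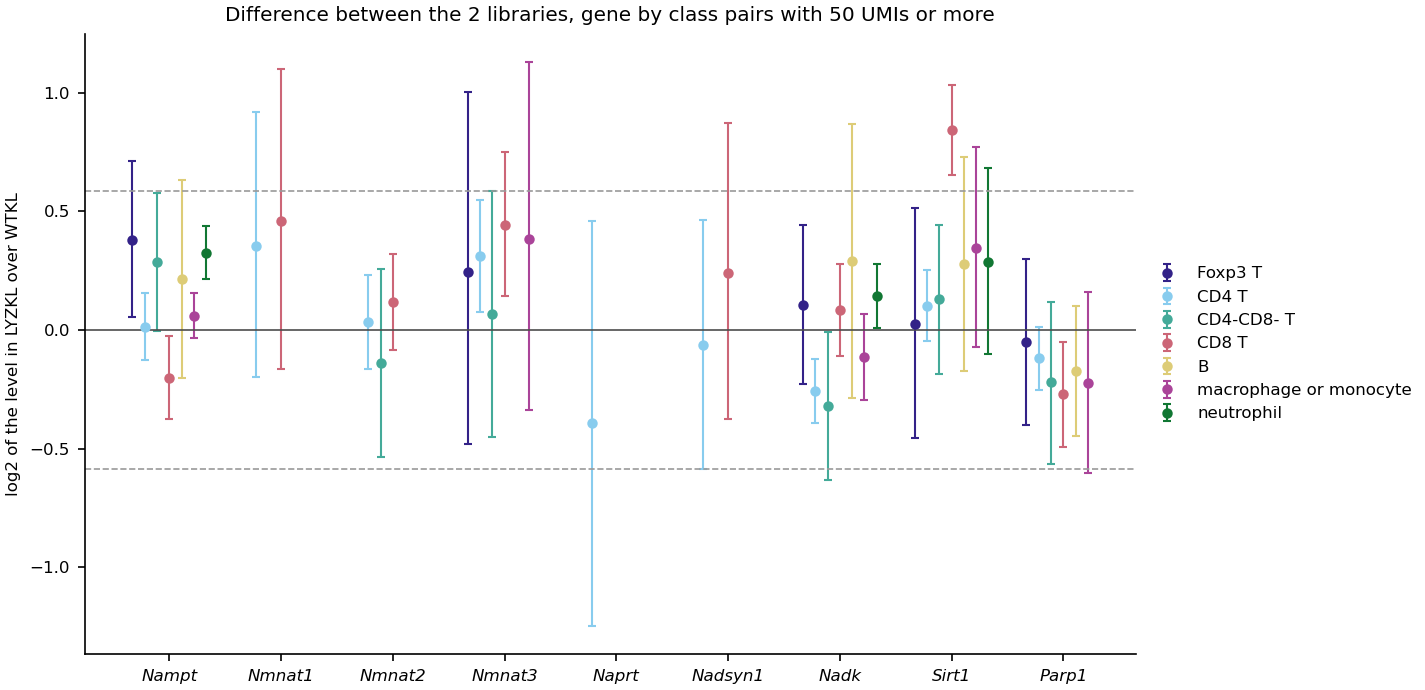
Log2 of the level in LYZKL over that in WTKL (vertical axis) for the 40 gene and class pairs with at least 50 UMIs, by gene (horizontal axis), coloured by cell class. Bars are exact 95% intervals of the ratio, the solid line is no difference and the dashed lines are 1.5-fold. Sirt1 in CD8 T cells (0.84) is the only point beyond a dashed line.

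In the other classes Sirt1 was closer between the libraries. CD4 T cells held 31.1 and 33.4 CPM, CD4-CD8- T cells 37.0 and 40.4 CPM, and Foxp3 T cells 25.4 and 25.8 CPM. B cells held 51.0 and 61.9 CPM, neutrophils 20.3 and 24.7 CPM, and macrophages or monocytes 17.2 and 21.8 CPM. All 7 ratios were above 0, but only the CD8 interval excludes it, and the Foxp3 ratio turned to -0.03 without Scrublet doublets and to -0.01 without the barcodes found in both libraries. In WTKL the CD8 level lay within counting error of the CD4 level (log2 ratio of CD8 to CD4 -0.10, -0.30 to 0.09), and in LYZKL it lay above it (0.64, 0.49 to 0.78). B cells had the highest Sirt1 level in both libraries, but their interval overlaps that of CD4-CD8- T cells in WTKL and that of CD8 T cells in LYZKL. Among macrophages or monocytes outside the Saa3 and Vcan groups Sirt1 was at 18.3 CPM (22 UMIs) and 34.4 CPM (32 UMIs), a log2 ratio of 0.91 (0.08 to 1.76).

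The CD8 difference was present within subsets. Naive-type CD8 T cells held 29.0 CPM in WTKL and 55.3 CPM in LYZKL (114 UMIs each, log2 ratio 0.93, 0.55 to 1.32), where 5.49% of genes were at least 1.5-fold higher. CD8 T cells with Xcl1, Itga1 or Itgae, genes of tissue-resident cells, held 19.96 and 43.0 CPM (40 and 210 UMIs, 1.11, 0.61 to 1.63), with 7.63% of genes that much higher. The remaining CD8 T cells reached 3 marker UMIs for none or for several of the subset marker groups. They held 32.03 and 59.0 CPM (0.88, 0.58 to 1.18), with 8.81% of genes higher. In CD8 T cells with Gzmk or Eomes, memory-type genes, 32.7 and 44.8 CPM (52 and 36 UMIs) gave a log2 ratio of 0.45 (-0.20 to 1.09), with 8.93% of genes higher. Thus 3 of 4 subsets passed 1.5-fold, and the smallest one had an interval that includes 0.

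The make-up of the CD8 class differed between the libraries: naive-type cells were 30.2% of it in WTKL and 10.5% in LYZKL, and Xcl1 or Itga1 cells 17.4% and 35.5%. By unsupervised clusters, cluster 8 held 28.6% and 71.6% of the CD8 T cells, with 36.3 CPM of Sirt1 in WTKL (29.1 to 44.7) and 54.6 CPM in LYZKL (49.6 to 59.8). Cluster 10 held 26.1% and 8.86%, with 30.1 CPM (24.6 to 36.6) and 58.3 CPM (47.5 to 71.0). Cluster 4 held 19.5% and 2.25%, with 29.7 CPM (65 UMIs) and 32.9 CPM (12 UMIs). The median depth of CD8 T cells was 6086 UMIs in WTKL and 4950 in LYZKL. The NK marker list was at 3051 and 1638 CPM in CD8 T cells, all 6 genes seen in both, and the gamma-delta T list at 218 and 306 CPM, with 4 and 5 of 6 genes seen. Their part in the Sirt1 difference was not tested.

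With every cell thinned to 1000 UMIs, 3.27% of CD8 T cells had a Sirt1 UMI in WTKL (2.48% to 4.24%) and 5.81% in LYZKL (4.90% to 6.83%). Without thinning the shares were 17.1% and 23.2%. The same thinned share in neutrophils was 2.62% and 2.43%, and in CD4 T cells 3.19% and 3.23%. In macrophages or monocytes it was higher in LYZKL, 0.590% (2 of 339 cells) and 3.31% (16 of 483 cells). An antisense gene, Gm16145, overlaps Sirt1 and had 0 UMIs in every class.

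**Figure D4:**
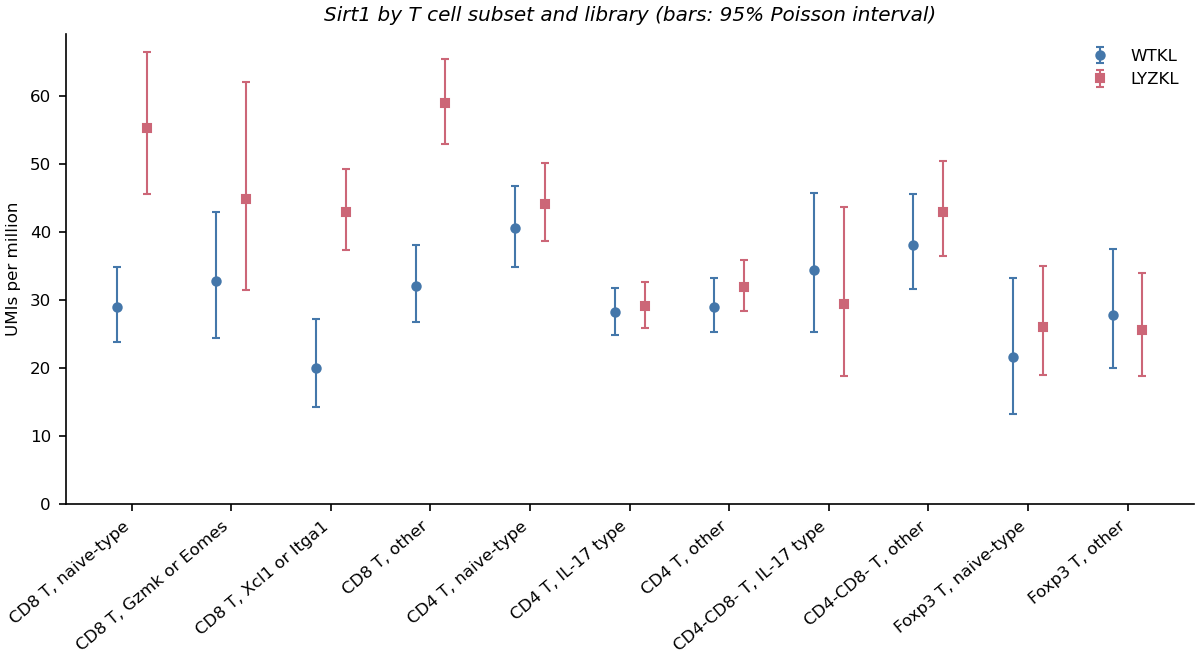
Sirt1 level in CPM of the subset (vertical axis, from 0) in 11 T cell subsets (horizontal axis), circles WTKL, squares LYZKL, 1 library each, bars 95% Poisson intervals. The libraries lie apart in naive-type CD8 T cells (29.0 and 55.3 CPM), those with Xcl1 or Itga1 (19.96 and 43.0 CPM) and the other CD8 T cells (32.03 and 59.0 CPM), and overlap in each CD4, CD4-CD8- and Foxp3 subset.

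Naive-type CD4 T cells also carried more Sirt1 than IL-17 type ones in both libraries, 40.5 against 28.2 CPM in WTKL and 44.1 against 29.1 CPM in LYZKL. Cycling T cells carried less, 20.8 CPM against 32.3 CPM in other T cells of WTKL and 26.1 against 41.1 CPM in LYZKL.

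Parp1, on chromosome 1 (GRCm38, 180568924 to 180601254, plus strand), was highest in B cells. B cells held 159 CPM in WTKL (141 to 180) and 142 CPM in LYZKL (122 to 163), which was 4.15-fold and 4.13-fold the level of all T cells. Of all genes tested, 18.7% and 22.2% were at least 1.5-fold higher in B cells. Neutrophils were at the other end, with 6 UMIs (1.40 CPM) and 11 UMIs (1.75 CPM), while macrophages or monocytes held 24.5 and 21.0 CPM. T cell classes ran from Foxp3 T cells (48.4 and 46.6 CPM) over CD4 (41.8 and 38.4 CPM) and CD4-CD8- (35.6 and 30.6 CPM) to CD8 T cells (30.01 and 24.9 CPM), the same order in both libraries. Intervals of neighbouring classes in this order overlap in both libraries, while those of Foxp3 and CD8 T cells do not. Within Foxp3 T cells the naive-type ones held 76.5 and 56.3 CPM, and the rest, below CD4 T cells, held 31.1 and 37.9 CPM. The cycling marker list was at 1098 and 1025 CPM in Foxp3 T cells, against 400 and 609 CPM in CD4 T cells. Its part in this order was not tested. Cycling T cells held 77.9 CPM against 33.3 CPM in other T cells of WTKL, and 68.0 against 28.7 CPM in LYZKL, which was 2.34-fold and 2.37-fold. In that comparison 14.1% and 13.2% of genes were at least 1.5-fold higher. Parp1 was lower in LYZKL in all 6 classes with at least 50 UMIs, except that Foxp3 T cells turned to 0.12 without Scrublet doublets, and only the CD8 interval excludes 0 (log2 ratio -0.27, -0.49 to -0.05). The cycling marker list of CD8 T cells was also lower in LYZKL, 591 against 462 CPM, with all 6 genes seen in both. Without cycling T cells, a setting chosen after seeing the data, the CD8 log2 ratio of Parp1 was -0.33. The part of cycling cells in the Parp1 difference was not tested.

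For the 4 members with at least 50 CPM somewhere, the genes with the most similar profile over the 14 class and library levels were found by Pearson correlation of log2 levels among 6731 genes. Nampt was closest to Sgpl1 (r = 0.99), a sphingosine phosphate lyase, and to Atp6ap2 and Atp6v1e1, both parts of the proton pump of acid compartments (r = 0.98 for both). Nadk was closest to Rab20, Eif4ebp1 and Tmbim6 (r = 0.98 each). Parp1 was closest to Dennd6a (r = 0.99), Hmgn1 and Bin1 (r = 0.98 for both). The nearest genes of Sirt1 were Gps2 (r = 0.97), Sppl3 (r = 0.97) and Lrig2 (r = 0.94). The 14 points share 2 libraries, so these values are descriptive.

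The other 46 genes of NAD metabolism on the list cover synthesis from tryptophan, riboside salvage, NAD handling, the other sirtuins, the PARP family with its reversal enzymes, and the NAD glycohydrolases. In CD8 T cells 36 of them had at least 50 UMIs; 6 were at least 1.5-fold higher in LYZKL and 1 lower, beside 10.2% and 3.95% of all genes, with a median log2 ratio of 0.14 against 0.11 for all genes. The 5 largest of the higher ones were Parp16, an enzyme of the endoplasmic reticulum (6.35 and 16.0 CPM, log2 ratio 1.33, 0.94 to 1.73), Parp8 (36.2 and 67.4 CPM, 0.90, 0.73 to 1.07), Afmid, of the tryptophan route (14.8 and 25.3 CPM, 0.77, 0.51 to 1.05), Sirt3, a mitochondrial deacetylase (9.22 and 14.9 CPM, 0.69, 0.34 to 1.04), and Bst1, a surface NAD glycohydrolase (9.05 and 13.9 CPM, 0.62, 0.27 to 0.98). Bst1 was far higher in macrophages or monocytes and in neutrophils, and the part of their RNA in its CD8 level was not tested. The remaining higher one was Sirt5 (5.92 and 8.89 CPM, 0.59, 0.15 to 1.04), and the lower one was Qprt, of the tryptophan route (5.57 and 2.33 CPM on 64 and 32 UMIs, -1.25, -1.91 to -0.62). These 2 genes, and Parp14 and Parp9, which are known as interferon-induced, are named after their values were seen. Parp14 was lower in LYZKL CD8 T cells, 130 and 102 CPM (-0.34, -0.45 to -0.24), and higher in CD4 T cells, 92.2 and 113 CPM (0.29, 0.21 to 0.38), in CD4-CD8- T cells, 105 and 157 CPM (0.58, 0.40 to 0.75), and in neutrophils, 222 and 280 CPM (0.34, 0.22 to 0.45). Parp9 was at 59.4 and 41.3 CPM in CD8 T cells (-0.52, -0.69 to -0.36) and at 40.8 and 51.8 CPM in CD4 T cells (0.35, 0.22 to 0.47).

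The remaining classes had few list genes past 1.5-fold. In CD4 T cells 1 of 39 was higher (Kynu, of the tryptophan route, 3.47 and 8.27 CPM, log2 ratio 1.25, 0.86 to 1.66) and 1 lower (Sirt5, a mitochondrial sirtuin, 13.8 and 7.09 CPM, -0.96, -1.24 to -0.68), where 4.4% and 4.9% of all genes were. In Foxp3 T cells none of 25 was higher and 2 were lower (Parp6 and Sirt6), beside 2.66% and 4.01% of all genes. In CD4-CD8- T cells none of 30 was higher and 2 were lower (Parp16 and Sirt5), beside 4.01% and 3.55%. In B cells 1 of 25 was higher (Slc25a51, the mitochondrial NAD carrier, 34.6 and 53.7 CPM, 0.63, 0.12 to 1.16) and 3 lower, Afmid, Kmo and Kynu, beside 4.49% and 3.8%. Kynu was at 59.2 and 37.3 CPM (-0.67, -1.19 to -0.17), and the Kmo interval includes 0 (-0.59, -1.35 to 0.13). Haao, the remaining tryptophan-route gene with enough UMIs in B cells, named after its values were seen, was at 95.6 and 95.4 CPM (163 and 128 UMIs). In macrophages or monocytes 1 of 33 was higher (Nnmt) and 1 lower (Afmid), beside 3.77% and 4.3%. In neutrophils none of 29 was past 1.5-fold, beside 7.5% and 5.58%. Outside CD8 T cells the medians of the list lay between -0.07 in B cells and 0.12 in neutrophils, against 0.05 for all genes in neutrophils.

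**Figure D5:**
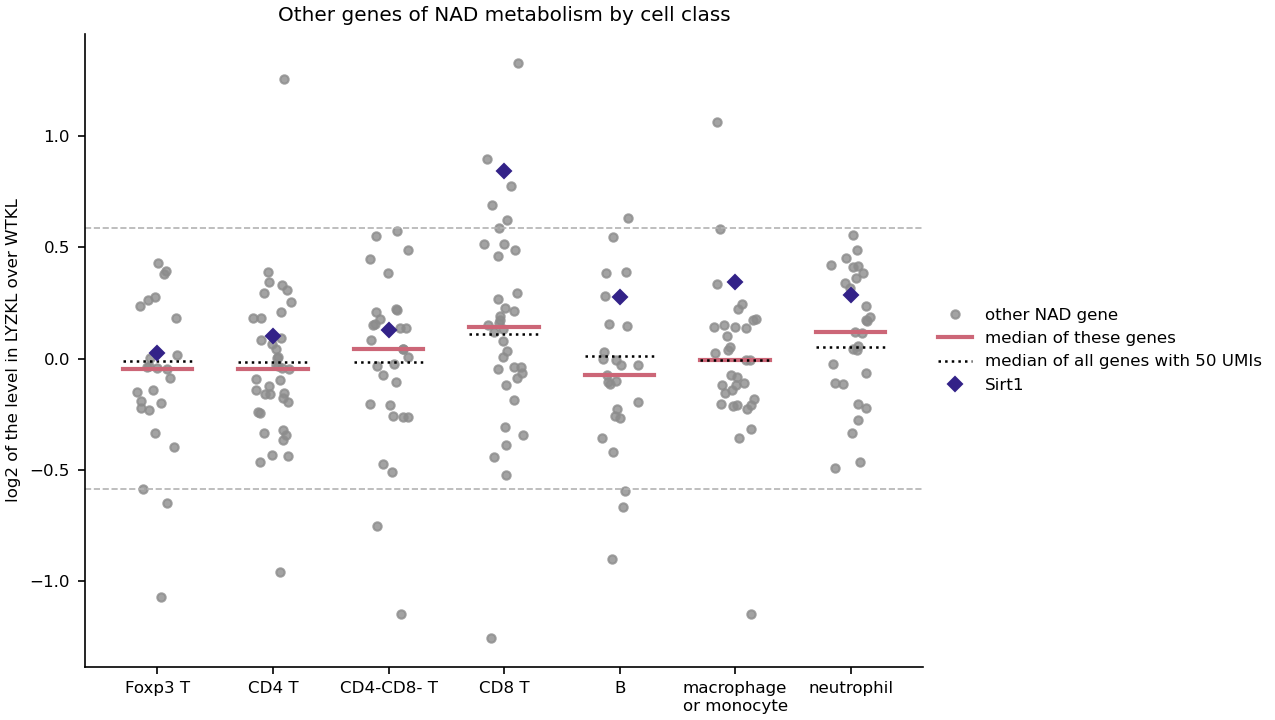
Log2 of the level in LYZKL over WTKL (vertical axis) of the other listed NAD genes with at least 50 UMIs, 1 grey point per gene, by cell class (horizontal axis). Red bars are the medians of these genes, dotted black bars the medians of all genes, diamonds Sirt1, and dashed lines 1.5-fold. The red and black bars lie close together in each class, and the CD8 class has 6 grey points at or above the upper line.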

How the data were processed

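Single-cell 3′ RNA libraries of WTKL and LYZKL, 1 each, were used. The deposited matrices hold whole-number UMI counts per gene and barcode, which the authors made with Cell Ranger 6.1.2 on mm10, per the submitters' processing notes. Each library held 77181312 (WTKL) and 93584629 (LYZKL) UMIs, with median depths of 4840 and 5327 UMIs per kept barcode.

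Barcodes with under 500 genes or over 10% mitochondrial UMIs were dropped. Classes came from marker UMIs: T cells had at least 3 UMIs of Cd3d, Cd3e and Cd3g, B cells 4 of 5 markers' UMIs, macrophages or monocytes 8 UMIs of 12 markers with fewer than 32 neutrophil marker UMIs per 10000, and neutrophils 12 UMIs of 9 markers. Foxp3 T cells had at least 2 Foxp3 UMIs, CD4 T cells at least 1 Cd4 UMI, and CD8 T cells at least 3 of Cd8a and Cd8b1. Cycling T cells had at least 6 UMIs of cycling markers. Other subsets had at least 3 UMIs of their markers (4 for neutrophil and 12 for Saa3, Cfb and Nos2 groups). Barcodes in 2 lineages were removed in place of a doublet caller. The gates were set from the markers, never from the members. The full marker list of the naive-type gate is not reported here.

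UMIs were summed per class and library and divided by the class total. Levels have exact Poisson intervals, ratios exact conditional binomial intervals and shares Clopper-Pearson intervals, all at 95%. A ratio was counted with at least 50 UMIs over both libraries, and past 1.5-fold stands in for a test. A count of 0 allows a level of up to 3 counts. Named were all members, the list genes past 1.5-fold with at least 100 UMIs (at most 5 per class), and the 3 genes of most similar profile for each member above 50 CPM, among genes above 30 CPM. The members, the lists and the tests were chosen with earlier results of these data known. Ratio code was tested on simulated data. edgeR 4.0.16 served only for TMM scaling, as an alternative. Other tools were Python 3.11.15, numpy 2.4.6, scipy 1.17.1, pandas 2.3.3, scanpy 1.11.5 and R 4.3.3. Gene positions are from GENCODE on GRCm38. Reads of a 3′ library cover the gene's end, so levels were not compared between genes.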

Additional observations from a re-analysis of the deposited data

Results flagged for a closer look

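Ratios of 1 gene whose interval lay above 0 in some cell classes and below 0 in others were looked at again. Each rests on 1 library per group, and the differences between classes were not tested. Nampt had log2 ratios of LYZKL to WTKL of 0.38 in Foxp3 T cells and 0.33 in neutrophils, where it was higher in LYZKL, and of -0.20 in CD8 T cells, where it was lower. Nadk had a log2 ratio of 0.14 in neutrophils, and of -0.26 in CD4 T cells and -0.32 in CD4-CD8- T cells.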

How the results depend on the processing

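The 40 member ratios were recomputed under 12 alternatives: other limits on detected genes and mitochondrially coded UMIs, Scrublet, classes from clusters, stricter gates, other scalings, a mean over cells, and, chosen after seeing the data, leaving out cycling T cells or the barcodes present in both libraries. Of 474 values 473 stayed within the 95% interval of the reported ratio. The sign changed in 13 values of 9 ratios, none of them among the 10 ratios whose interval excludes 0: Nmnat2 in CD8 T cells (0.12, lowest -0.07), in 3 alternatives, Nmnat2 in CD4-CD8- T cells, Nadsyn1, Nmnat1 and Nampt in CD4 T cells, Nadk in CD8 T cells, Nampt in B cells, and Sirt1 and Parp1 in Foxp3 T cells. Nampt in CD8 T cells moved to -0.46 without Scrublet doublets, and the cause was not tested. Sirt1 in CD8 T cells ranged from 0.67 with classes from clusters to 0.84 and stayed past 1.5-fold in all 12; it was 0.73 with TMM scaling and 0.83 without the shared barcodes. The 1 member ratio past 1.5-fold became 3 with classes from clusters (also Nmnat1 in CD8 T cells and Nmnat2 in macrophages or monocytes), 2 with a mean over cells and 2 without cycling T cells (Nmnat1 in CD8 T cells both times), and 3 with a minimum of 20 UMIs (also Nadsyn1 in Foxp3 T cells and Nmnat1 in macrophages or monocytes). Most cells of the clusters taken as macrophages or monocytes were outside the gated class, which held 39.7% and 34.3% of them. Nmnat2 had 187 UMIs in these clusters, against 5 in WTKL and 2 in LYZKL in the gated class. The 19 list gene and class pairs past 1.5-fold became 32 with a minimum of 20 UMIs and 7 with 200, since more or fewer genes enter. The list median in B cells moved from -0.07 to 0.060 with classes from clusters. The clusters gave no CD4-CD8- class. TMM lowered CD8 log2 ratios by 0.11. No paired analysis was possible because each group has 1 library. For Naprt, Nadsyn1 and Nmnat1 the depth limits most class ratios.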

Other observations

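The genes in this paragraph are on the list of NAD genes but were picked after their values were seen. Cd38, a surface enzyme that breaks NAD down and is named in the title of the series, was highest in macrophages or monocytes (205 CPM in WTKL, 226 CPM in LYZKL, log2 ratio 0.14, 0.02 to 0.26) and B cells (164 and 181 CPM). CD8 T cells held less of it in LYZKL, with 47.7 against 35.1 CPM (-0.44, -0.62 to -0.26), and Foxp3 T cells held 33.6 and 25.6 CPM, with an interval that includes 0. Bst1, its relative, had 354 and 363 CPM in macrophages or monocytes and 259 and 291 CPM in neutrophils. In CD8 T cells Bst1 was at 9.05 and 13.9 CPM. The macrophage markers, which the T cell gate caps, were there at 2.89% and 3.49% of their macrophage level. The part of myeloid RNA in the CD8 level of Bst1 was not tested. Nmrk1, the kinase of nicotinamide riboside, was higher in LYZKL in CD4 T cells (35.3 and 46.3 CPM, 0.39), CD4-CD8- T cells (22.3 and 32.6 CPM, 0.55) and CD8 T cells (25.7 and 36.7 CPM, 0.51), and lower in Foxp3 T cells, on 27 and 20 UMIs (-0.98, -1.89 to -0.09). The difference between these classes was not tested.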
